A study of Homo sapiens with 9 samples.

Results

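The genes described here are the non-coding snoRNA host genes that GENCODE 29 names as SNHG with a number, together with GAS5, ZFAS1 and EPB41L4A-AS1, in the human erythroleukaemia line K562. They were chosen by symbol and by a minimum of 10 counts in at least 1 of 9 libraries, which left 26 of the 58347 gene IDs in the deposited count table. The choice was made with earlier results of these data known. Of 28 candidate IDs, 2 fell short: SNHG18 was listed at 0 counts in every library, which allows a level of up to 0.0949 to 0.152 CPM (the value of 3 counts, for counting error only), and the second of the 2 IDs that carry the symbol SNHG28 reached 3 counts. Just inside the minimum were the other SNHG28 ID, which GENCODE 29 types as protein-coding and which reached 10 counts in 1 DMSO library, and SNHG22, which reached 18. After the filter on low counts 25 members were tested and SNHG28 was not.

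All cells were K562-FIRE, a K562 derivative that stably expresses dCas9, MS2-Fkbp(1x) and SS18-Frb, each from an EF1a promoter, with cassettes labelled Blast, Hygro and PGK Puro. The dCas9 and SS18-Frb constructs are labelled as lentiviral. SS18 is a subunit of the BAF chromatin remodelling complex, and rapamycin joins Fkbp to Frb, so that the drug brings the BAF complex to the site where dCas9 is held by the guide RNA (sgRNA). Cells with a guide to the HBG1 promoter received DMSO (n = 3) or 10 nM rapamycin (n = 3) for 24 h, and cells with a non-targeting guide received DMSO (n = 1, replicate 2) or 10 nM rapamycin (n = 2, replicates 1 and 2) for 24 h. The study asked whether recruited endogenous BAF raises HBG1 expression. Rapamycin also inhibits the mTORC1 kinase in cells with either guide, and every library, the controls included, carries these constructs. The labels do not say whether the cells were 1 clone, nor whether replicates were separate cultures, so p-values measure the spread between these libraries, which may be technical. In such bulk RNA, fewer cells of a kind and less RNA per cell cannot be told apart.

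Small nucleolar RNAs (snoRNAs) guide the methylation and pseudouridylation of ribosomal RNA, and in human cells most are cut from the introns of a host transcript after splicing. Many non-coding hosts begin with a 5′ terminal oligopyrimidine (TOP) tract, a C followed by a run of C and T, the same feature that puts the translation of ribosomal protein mRNAs under mTORC1. Spliced host RNAs such as GAS5 carry short reading frames, and their translation exposes them to nonsense-mediated decay, so that inhibitors of translation are known to raise their levels. Poly-T selected RNA gives the level of each host transcript and not its translation.

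The 9 libraries held 19797409 to 31619671 counts and the members took 34348 to 66300 of these. Replicate 1 of the HBG1 guide stood apart from replicates 2 and 3 under both treatments, with a chi-square per gene of 16.5 to 18.6 against them and 4.74 and 7.91 between the other two. The targeted gene HBG1, which has a near-identical copy in HBG2, was at 137, 312 and 436 CPM under DMSO and 1532, 1807 and 2446 CPM under rapamycin with its guide, and with the non-targeting guide at 8228 CPM under DMSO and 8845 and 8937 CPM under rapamycin. Each of 10 erythroid markers, HBG1 and HBG2 included, exceeded 10 CPM in every library. With the HBG1 guide 4 of them, among them HBG1 and HBG2 themselves, rose under rapamycin and 1 fell. Over all tested genes 2.75% rose and 4.05% fell. With the non-targeting guide 0 of the 10 were called, where 0.325% of all genes rose and 0.566% fell. Any part of these marker changes in the results below was not tested. The 8 markers of other cell types summed to 50.1 to 70.4 CPM, of which EPCAM made up most and 3 stayed under 1 CPM throughout. CPM are counts per 1000000 counts of a library, scaled by edgeR's TMM factors.

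The TOP-type start that gives the group its name was annotated for part of the members and for a minority of their transcripts. A C followed by at least 4 C or T stood at the start of 1 or more GENCODE 29 transcripts of 13 of the 26 members (50%), against 11.7% of all tested genes and 83.5% of ribosomal protein genes. Counted per transcript, 13.2% of 242 member transcripts had it, against 2.60% of the transcripts of tested genes and 20.4% of those of ribosomal protein genes, with a median of 5 transcripts per member and 4 per tested gene. At the single RefSeq start of each gene, the share was 22.7% of 22 members, 4.07% of 35116 genes and 60.3% of 78 ribosomal protein genes. The first 30 transcribed bases are shown for 12 of the 13 members, each from 1 transcript picked among those with the run. Transcripts with the run were 1 of 25 for SNHG1, 1 of 3 for SNHG3, 6 of 29 for GAS5 and 1 of 1 for SNHG19. The members are ordered by level per exon length, with the uninterrupted run of C and T in capitals:
SNHG5: CTTTTacgtcggccttcgcgagcgtctggg
GAS5: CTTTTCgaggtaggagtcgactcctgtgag
SNHG1: CTCCTgtctgcaggatttacgcgcacgttg
SNHG3: CCTTTTTggagacagattcgcagtggtcgc
SNHG19: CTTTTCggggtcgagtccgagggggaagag
SNHG8: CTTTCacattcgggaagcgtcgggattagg
ZFAS1: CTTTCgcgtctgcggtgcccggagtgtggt
SNHG16: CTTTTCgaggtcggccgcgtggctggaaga
SNHG4: CCTTTCCCCTCCggcctctgccggtgctgc
SNHG25: CTTTCagcgcctgcaggttccgggagctcc
SNHG12: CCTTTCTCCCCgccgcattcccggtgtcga
SNHG11: CCCCTCagcctcctccgcgcggttacccct

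In these starts the run was between 5 and 12 bases long, longest in SNHG4 and SNHG12. GAS5, SNHG16 and SNHG19 began with the same letters, and ZFAS1, SNHG8 and SNHG25 shared a shorter run. GENCODE transcript ends are annotation and were not measured in these libraries.

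Levels per exon length spanned a wide range among the members. SNHG5 stood first at 107 CPM per kb of annotated exon (mean over 9 libraries), followed by GAS5 at 72.7, SNHG6 at 68.1, SNHG1 at 54.6 and SNHG3 at 54.5 CPM per kb. SNHG1 and SNHG3, neighbours in that order, differed by less than their spread between libraries. At the other end were SNHG14, a long imprinted transcript of chromosome 15 that holds 84 of the 135 snoRNAs annotated inside members, at 0.314 CPM per kb, SNHG22 at 0.108 and SNHG28 at 0.0171. The annotated exons of a gene are the union over all its transcripts, so a gene with many rarely used exons is placed low.

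With the HBG1 guide, 4 host genes fell after 24 h of rapamycin and none rose: SNHG1, SNHG12, SNHG17 and SNHG3, with log2 fold changes between -0.49 and -0.35. These were 4 of 25 tested members (16%), where 4.05% of all 23675 tested genes were called lower and 2.75% higher (edgeR quasi-likelihood test, Benjamini-Hochberg adjusted p under 0.05). Since the members were chosen with earlier results of these data known, the shares of members and of all genes are a description. The other 21 members did not pass. At an unadjusted p under 0.05, 10 members were lower and 0 higher, against 10.9% and 9.93% of all genes. The median log2 fold change was -0.16 over the 25 members and 0.02 over all tested genes, and 20 of 25 members were below 0.

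SNHG1 (ENSG00000255717, chromosome 11, 62851988 to 62855914, minus strand, GRCh38, GENCODE 29) hosts a cluster of box C/D snoRNAs, which guide ribose methylation. Its level under DMSO was 255, 244 and 241 CPM in replicates 1, 2 and 3, and 192, 164 and 169 CPM under rapamycin. All 3 rapamycin libraries lay below all 3 DMSO libraries. The mean fell from 246 ± 7.40 CPM (SD, n = 3) to 175 ± 14.8 CPM (SD, n = 3) (log2 fold change -0.49, SE 0.07, edgeR adjusted p = 0.00105).

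SNHG12 (ENSG00000197989, chromosome 1, 28578538 to 28583132, minus strand) hosts H/ACA snoRNAs, which guide pseudouridylation, and a C/D snoRNA. It was at 54.5, 47.0 and 53.0 CPM under DMSO and 37.0, 39.0 and 34.0 CPM under rapamycin. The groups did not overlap, and its proportional fall was close to that of SNHG1, with a mean of 51.5 ± 3.98 CPM (SD, n = 3) against 36.7 ± 2.52 CPM (SD, n = 3) (log2 fold change -0.49, SE 0.09, edgeR adjusted p = 0.00533).

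SNHG17 (ENSG00000196756, chromosome 20, 38420588 to 38435353, minus strand) hosts the SNORA71 family of H/ACA snoRNAs. It is the one called member with the TOP-type start on none of its GENCODE transcripts. At their RefSeq starts, SNHG1 and SNHG3 lack it too. Its DMSO libraries were at 43.5, 38.9 and 40.0 CPM and its rapamycin libraries at 33.5, 32.8 and 27.0 CPM, again without overlap. The mean fell from 40.8 ± 2.38 CPM (SD, n = 3) to 31.1 ± 3.59 CPM (SD, n = 3) (log2 fold change -0.40, SE 0.10, edgeR adjusted p = 0.0258). The call ended without any 1 of the DMSO libraries (adjusted p = 0.0759, 0.0627 and 0.0711 without replicates 1, 2 and 3) and without rapamycin replicate 3 (adjusted p = 0.136, all by edgeR).

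SNHG3 (ENSG00000242125, chromosome 1, 28505980 to 28510892, plus strand) hosts the H/ACA snoRNAs SNORA73A and SNORA73B. It was at 282, 239.7 and 239.7 CPM under DMSO and 227, 175 and 194 CPM under rapamycin, so the highest rapamycin library, replicate 1, came close to the lowest DMSO library. In each replicate the rapamycin library was the lower one. The mean went from 254 ± 24.6 CPM (SD, n = 3) to 199 ± 26.1 CPM (SD, n = 3) (log2 fold change -0.35, SE 0.10, edgeR adjusted p = 0.0345). The call ended in 8 of 16 alternatives, with adjusted p-values of 0.110, 0.0700 and 0.0616 without DMSO replicates 1, 2 and 3, 0.112 and 0.131 without rapamycin replicates 2 and 3, 0.0515 and 0.0516 without non-targeting rapamycin replicates 1 and 2, and 0.0576 when only the HBG1 guide libraries were fitted (edgeR).

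**Figure D1:**
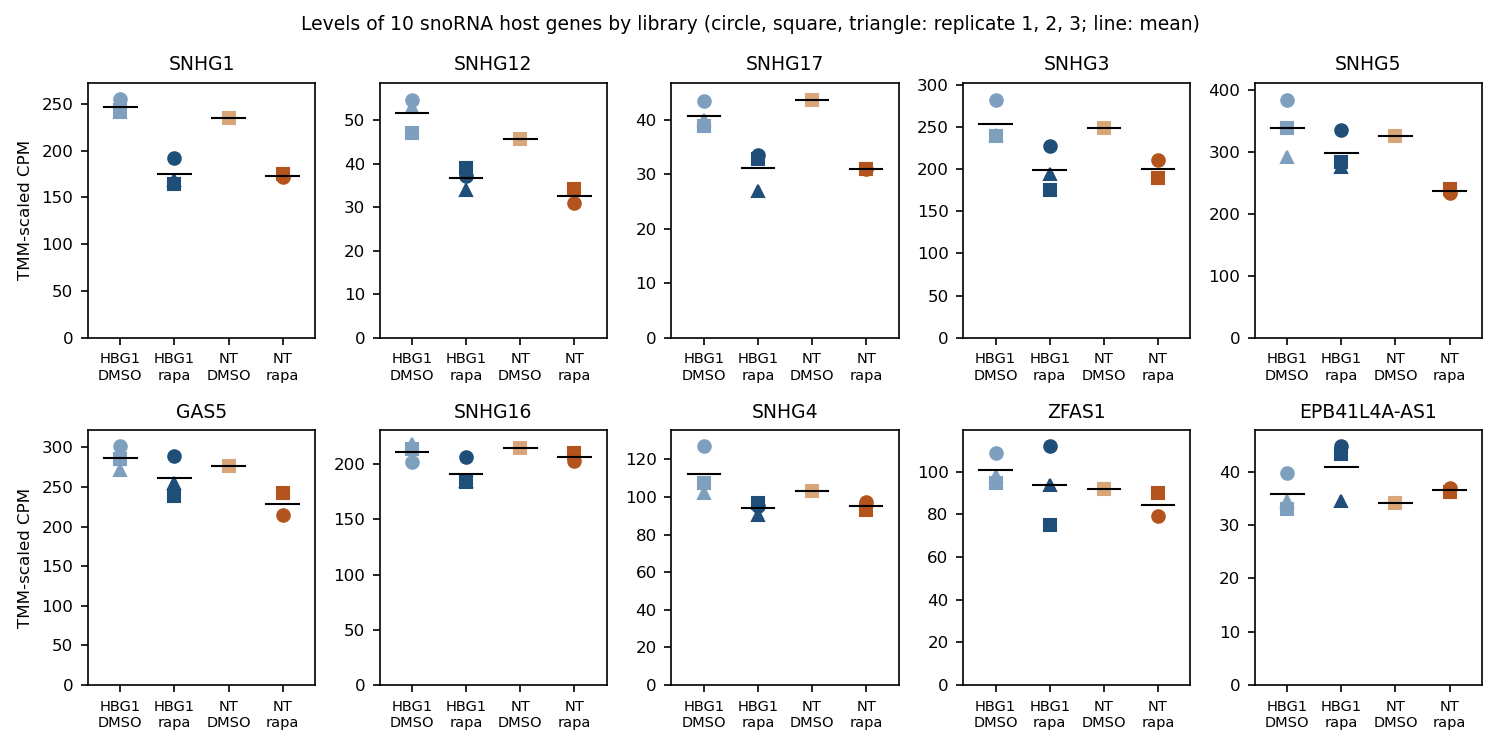
TMM-scaled CPM (vertical axis, linear from 0) of 10 members in each library, by guide and treatment; circles, squares and triangles are replicates 1, 2 and 3 and the line is the group mean. In SNHG1, SNHG12, SNHG17 and SNHG3 all rapamycin points with the HBG1 guide lie below all DMSO points, while in GAS5, SNHG16, ZFAS1 and EPB41L4A-AS1 they overlap.

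The promoters of the 4 called genes are given from RefSeq (GRCh38.p14, 250 bases before to 50 after the RefSeq start), with the first 50 transcribed bases in capitals, so that the starts can be set side by side:
SNHG1: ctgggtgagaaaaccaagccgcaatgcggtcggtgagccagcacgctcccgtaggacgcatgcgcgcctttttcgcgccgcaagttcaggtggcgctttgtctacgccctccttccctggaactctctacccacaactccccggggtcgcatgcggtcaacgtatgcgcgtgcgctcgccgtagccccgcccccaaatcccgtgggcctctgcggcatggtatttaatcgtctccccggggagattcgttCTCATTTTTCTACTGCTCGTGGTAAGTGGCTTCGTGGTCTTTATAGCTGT
SNHG12: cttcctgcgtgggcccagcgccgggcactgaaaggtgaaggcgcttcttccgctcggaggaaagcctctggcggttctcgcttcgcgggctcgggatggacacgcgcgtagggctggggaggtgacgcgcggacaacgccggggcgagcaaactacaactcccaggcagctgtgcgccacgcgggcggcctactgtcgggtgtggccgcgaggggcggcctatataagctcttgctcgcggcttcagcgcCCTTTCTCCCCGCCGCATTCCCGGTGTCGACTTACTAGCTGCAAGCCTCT
SNHG17: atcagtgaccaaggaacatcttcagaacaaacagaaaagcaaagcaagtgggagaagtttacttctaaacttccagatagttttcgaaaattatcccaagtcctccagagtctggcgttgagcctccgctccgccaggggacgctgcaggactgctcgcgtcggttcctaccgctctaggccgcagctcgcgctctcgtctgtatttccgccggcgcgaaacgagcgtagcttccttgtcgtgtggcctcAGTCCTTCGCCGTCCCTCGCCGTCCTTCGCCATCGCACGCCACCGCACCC
SNHG3: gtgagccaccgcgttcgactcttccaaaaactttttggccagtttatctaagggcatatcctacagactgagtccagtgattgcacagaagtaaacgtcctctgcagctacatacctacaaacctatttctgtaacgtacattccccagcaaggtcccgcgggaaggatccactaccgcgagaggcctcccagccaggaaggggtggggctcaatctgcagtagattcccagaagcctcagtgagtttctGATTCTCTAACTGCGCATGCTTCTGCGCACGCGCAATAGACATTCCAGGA

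They lie at chr11:62855836-62856135 on the minus strand, chr1:28581824-28582123 on the minus strand, chr20:38435279-38435578 on the minus strand and chr1:28505693-28505992 on the plus strand. Of the 4 RefSeq starts, that of SNHG12 opens with C and at least 4 C or T. The RefSeq start of SNHG1 lies at another base than the GENCODE start shown above and its run is broken by an A, and the RefSeq start of SNHG3 begins with G. That of SNHG17 begins with A and has no such run in either annotation.

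The other abundant members did not pass the test. SNHG5 (ENSG00000203875, chromosome 6, 85660950 to 85678748, minus strand), host of SNORD50 and the member with most counts, was at 384, 339 and 292 CPM under DMSO and 335, 283 and 276 CPM under rapamycin. Every rapamycin library was below the DMSO library of its number, but the groups overlapped (log2 fold change -0.18, SE 0.10, edgeR adjusted p = 0.300). GAS5 (ENSG00000234741, chromosome 1, 173863900 to 173868882, minus strand), a growth-arrest transcript known as a target of nonsense-mediated decay, was at 302, 286 and 272 CPM under DMSO and 289, 239 and 255 CPM under rapamycin (log2 fold change -0.13, SE 0.08, edgeR adjusted p = 0.388). Its rapamycin replicate 1 lay above 2 of the DMSO libraries.

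SNHG16 (ENSG00000163597, chromosome 17, 76557766 to 76565348, plus strand), which hosts the SNORD1 family, was at 202, 214 and 218 CPM under DMSO and 206, 184 and 185 under rapamycin (log2 fold change -0.14, SE 0.07, edgeR adjusted p = 0.282), with replicate 1 a little higher and replicates 2 and 3 lower. SNHG4 (ENSG00000281398, chromosome 5, 139274102 to 139284899, plus strand), host of SNORA74A and SNORA74D, was at 127, 108 and 102 CPM under DMSO and 95.3, 97.0 and 90.3 under rapamycin. The groups of SNHG4 did not overlap and it was lower in 3 of 3 pairs, with a log2 fold change of -0.25 (SE 0.09, edgeR adjusted p = 0.0909).

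ZFAS1 (ENSG00000177410, chromosome 20, 49278178 to 49295738, plus strand), host of the SNORD12 family, was at 109, 94.9 and 98.1 CPM under DMSO and 112, 75.2 and 94.0 CPM under rapamycin (log2 fold change -0.10, SE 0.11, edgeR adjusted p = 0.666). Its rapamycin libraries spread more widely than its DMSO libraries, on both sides of them. EPB41L4A-AS1 (ENSG00000224032, chromosome 5, 112160526 to 112164276, plus strand), host of SNORA13, was above 0, at 39.7, 33.0 and 34.6 CPM under DMSO and 44.9, 43.4 and 34.5 CPM under rapamycin, with overlapping groups (log2 fold change 0.19, SE 0.11, edgeR adjusted p = 0.355).

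The remaining 15 tested members ranged in log2 fold change from -1.41 to 0.82, and both ends are thinly covered. SNHG27 was at 1.20, 3.59 and 1.08 CPM under DMSO and 0.361, 0.807 and 1.01 under rapamycin (edgeR adjusted p = 0.117), with DMSO replicate 2 the highest library and a log2 fold change of -0.63 without it. SNHG22 had 2, 11 and 7 counts under DMSO and 9, 18 and 3 under rapamycin. SNHG9, which hosts SNORA78, had log2 -0.71 (adjusted p = 0.187), SNHG21 -0.36 (0.214), SNHG7 -0.30 (0.0717), SNHG19 -0.27 (0.292) and SNHG8 -0.21 (0.212), all by edgeR. SNHG14, SNHG20, SNHG25, SNHG11 and SNHG15 lay between -0.16 and -0.05, and SNHG10, SNHG6 and SNHG26 between 0.12 and 0.26.

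Across the tested members, the rapamycin CPM lay wholly below the DMSO CPM for 10 and wholly above for 0, against 13.1% and 12.2% of all tested genes, and 15 overlapped. The rapamycin library was the lower one in 3 of 3 replicate pairs for 14 members and the higher one in 3 of 3 for 0, against 22.4% and 22.6% of all genes. The median over members was -0.17, -0.25 and -0.20 (log2) in pairs 1, 2 and 3 (SD 0.04). Among the 6 HBG1 guide libraries, deviations of same-numbered ones correlated at 0.553, 0.278 and 0.231. Replicates 2 and 3 correlated about as well when crossed (0.258 and 0.194), so the numbers set apart replicate 1 alone. With replicate number as a block in those 6 libraries, 7 of 24 tested members (29.2%) were lower and 0 higher, against 9.62% and 7.43% of 20179 genes. The 3 added were SNHG7 (edgeR adjusted p = 0.0136), SNHG4 (0.0166) and SNHG5 (0.0459), and GAS5 did not pass (0.142). An additive model of guide and treatment over all libraries also called 7 lower, where 7.8% of all genes were. The count of 4 fell to 2, SNHG1 and SNHG12, without DMSO replicate 1, 2 or 3 or rapamycin replicate 3 of the HBG1 guide, and was 5 without both replicate 1 libraries, where SNHG16 passed (edgeR adjusted p = 0.0371) and 5.17% of all genes were lower.

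The non-targeting guide gave the same treatment in libraries that the first comparison does not share. Here the members leaned the same way, but none passed the edgeR test, in which 0.566% of all genes were called lower and 0.325% higher (lowest member adjusted p = 0.0715). At an unadjusted p under 0.05, 9 members were lower and 0 higher, against 7.3% and 6.84% of all genes: SNHG7, SNHG1, SNHG12, SNHG17, SNHG5, SNHG15, GAS5, SNHG3 and SNHG8. The single DMSO library has no replicate error of its own and was assumed to vary like the other groups.

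SNHG7, host of SNORA17 and the member with the lowest p here, was at 55.2 CPM under DMSO and 36.2 and 38.4 CPM under rapamycin (log2 fold change -0.57, SE 0.14, edgeR adjusted p = 0.0715). With the HBG1 guide it was at 57.6, 51.6 and 51.0 CPM under DMSO and 44.8, 47.2 and 38.5 under rapamycin. In both guides all rapamycin libraries of SNHG7 were below all DMSO libraries. SNHG1 was at 235 CPM under DMSO and 171 and 175 CPM under rapamycin (log2 fold change -0.44, SE 0.11, edgeR adjusted p = 0.0718), and SNHG5 at 326 CPM under DMSO and 233 and 241 CPM under rapamycin (log2 -0.46, SE 0.14, adjusted p = 0.143). For both genes the rapamycin libraries were close to each other and well under the DMSO library.

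The other 3 genes called with the HBG1 guide were at lower CPM in both rapamycin libraries here. SNHG12 was at 45.5 CPM under DMSO and 30.9 and 34.1 CPM under rapamycin (log2 -0.49, SE 0.14), and SNHG17 at 43.7 CPM under DMSO and 31.0 and 31.1 CPM under rapamycin (log2 -0.50, SE 0.15). SNHG3 was at 248 CPM under DMSO and 210.1 and 189 CPM under rapamycin (log2 -0.31, SE 0.14). None of the 3 passed, with edgeR adjusted p-values of 0.117, 0.134 and 0.326.

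Of the abundant members, GAS5 was at 277 CPM under DMSO and 215 and 242 under rapamycin (log2 -0.28, SE 0.12, edgeR adjusted p = 0.315). SNHG16 was at 215 CPM under DMSO against 203 and 211 CPM, and SNHG4 at 103 CPM against 97.5 and 93.1 CPM. ZFAS1 was at 91.9 CPM against 79.4 and 89.8 CPM, and EPB41L4A-AS1 at 34.1 CPM against 37.0 and 36.3 CPM. EPB41L4A-AS1 was the one of these 5 whose rapamycin libraries both exceeded the DMSO library. SNHG22 had 0 counts in the DMSO library and 2 and 5 under rapamycin, so no fold is given for it.

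Both rapamycin libraries were below the DMSO library for 18 of 25 members and above it for 4, against 35.4% and 38.4% of all tested genes, and 3 straddled it. The median log2 fold change was -0.21, against 0.03 over all genes, and -0.22 without SNHG22. Of the 25 members, 20 (80%) had the same sign with either guide, against 68.0% of all genes, and 17 (68%) were lower with both, against 31.3%. With replicate number as a block over all libraries, 4 members were called lower with the non-targeting guide (SNHG1, SNHG3, SNHG5 and SNHG7), where 0.955% of genes were. This block also ties the HBG1 and non-targeting libraries of a number, whose deviations correlated at -0.073, so it is not supported between guides. With the block within each guide 4 members were called (1.86% of genes), and with no filter on low counts 3 (0.991%). DESeq2 also called 4 (SNHG1, SNHG5, SNHG7 and SNHG12), where it called 4.12% of genes lower. HBG1 guide rapamycin replicate 1 is in neither group compared here, but enters the filter, the scaling and the estimate of the spread. Without it edgeR called 3 (1.36% of genes), and without both replicate 1 libraries of that guide 6 (3.44%).

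**Figure D2:**
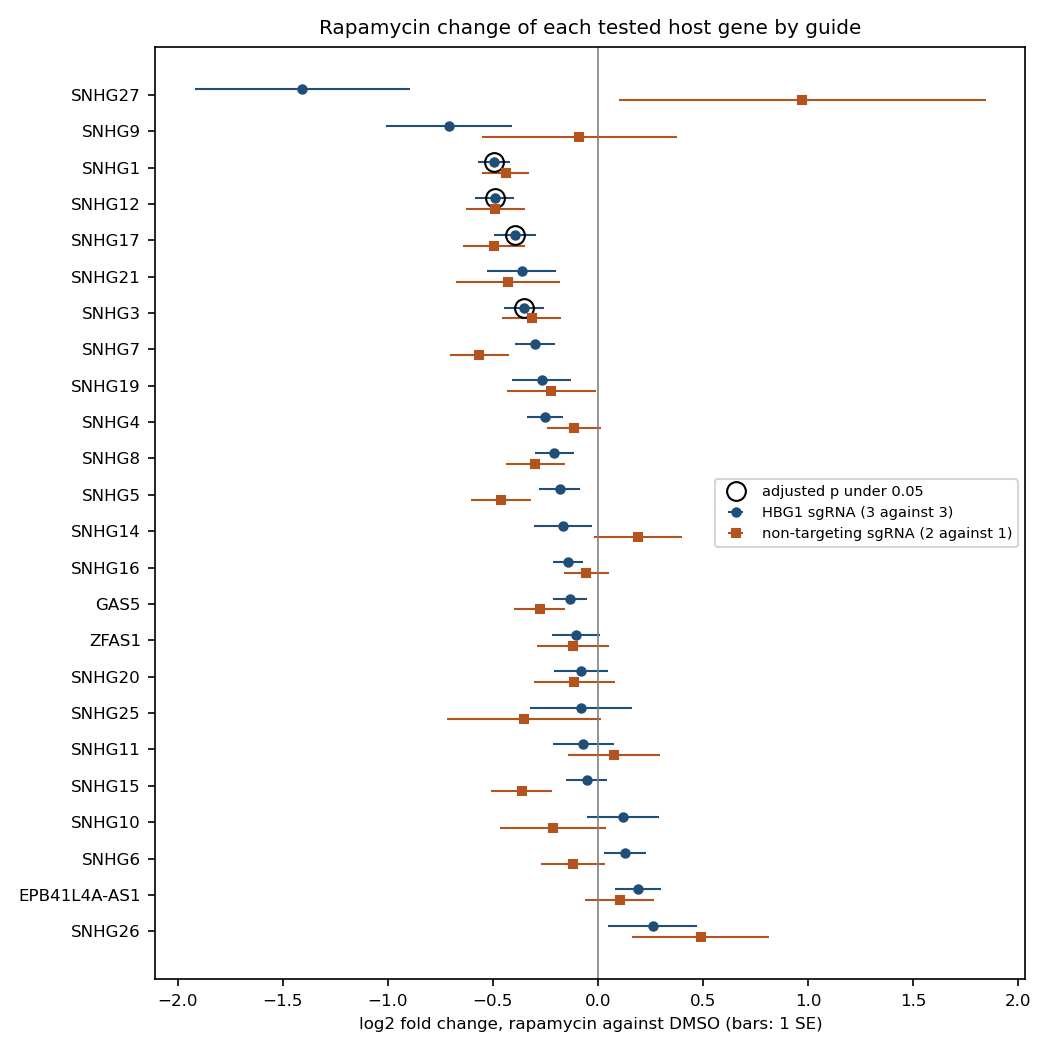
Log2 fold change of rapamycin against DMSO (horizontal axis, bars of 1 SE) for 24 tested members with the HBG1 guide (circles, 3 against 3 libraries) and the non-targeting guide (squares, 2 against 1); SNHG22 is left out because it had 0 counts in the non-targeting DMSO library. Open rings mark the 4 members with an adjusted p under 0.05, at -0.35 to -0.49, and most points of both guides lie left of 0.

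Whether the guide altered the hosts was tested in 2 ways, and no member passed. Without passing, the members leaned higher with the HBG1 guide under rapamycin, with 19 above 0, 6 below and a median log2 of 0.15. Over all genes that median was 0.01 and 48.4% were below 0. For the difference between the guides' rapamycin changes, 13 members were above 0 and 12 below. Under rapamycin, HBG1 against non-targeting guide gave 0 called members (0.0296% of all genes were called), and at an unadjusted p under 0.05 (6.27% of all genes) SNHG5 (log2 0.33) and SNHG6 (log2 0.25) were higher with the HBG1 guide, with an edgeR adjusted p of 0.773 and 0.774. The test of whether the rapamycin change differs between guides also gave 0 members (0.00422% of all genes), with 1 at an unadjusted p under 0.05, the thinly covered SNHG27 (2.86% of all genes). DESeq2 called 0 members in both, and 0.0638% and 0% of all genes. These tests reuse rapamycin libraries of the comparisons above. For SNHG1 the difference between the guides' rapamycin changes was -0.05 (SE 0.13), and for SNHG5 it was 0.28 (SE 0.17).

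Summed over the 26 members, the hosts took 0.210%, 0.197% and 0.193% of all counts under DMSO with the HBG1 guide and 0.188%, 0.167% and 0.169% under rapamycin. With the non-targeting guide the shares were 0.193% under DMSO and 0.156% and 0.163% under rapamycin. All 5 rapamycin libraries lay below all 4 DMSO libraries. The ratio of rapamycin to DMSO was 0.895, 0.848 and 0.876 in the 3 pairs of the HBG1 guide and 0.830 for the means of the non-targeting guide. The sum is dominated by SNHG5, GAS5, SNHG3, SNHG1 and SNHG16 and has no test, since the members were chosen with earlier results known.

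**Figure D3:**
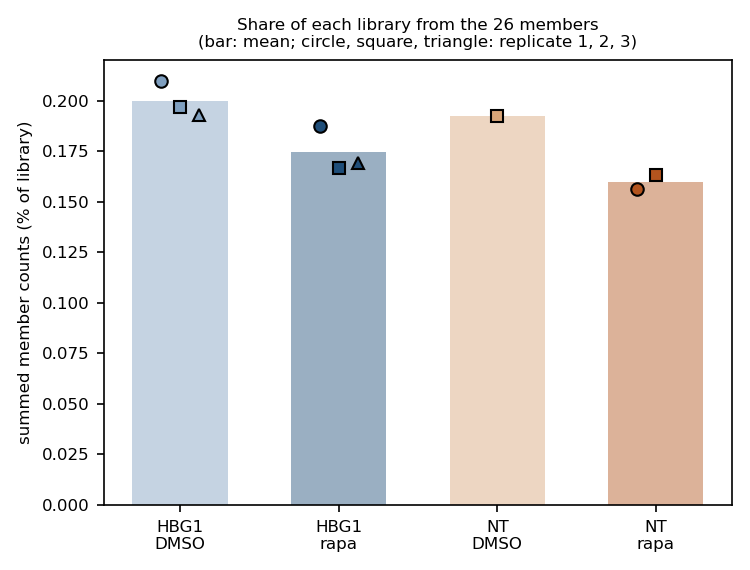
Percent of each library's counts that fall on the 26 members (vertical axis from 0), by guide and treatment; bars are group means and circles, squares and triangles are replicates 1, 2 and 3. The mean is 0.200% and 0.174% with the HBG1 guide under DMSO and rapamycin, and 0.193% and 0.160% with the non-targeting guide.

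Several hosts share exons or starts with other genes, and the labelled kit states no strand marking, so reads on shared bases cannot be told apart. SNHG3 shares 242 exon bases on the same strand with RCC1, the exchange factor of the GTPase Ran, which fell with it, from 204 to 159 CPM (log2 fold change -0.35, SE 0.07, edgeR adjusted p = 0.00718). SNHG12 shares 8 bases with TRNAU1AP (log2 0.11, adjusted p = 0.640). EPB41L4A-AS1 shares 1659 bases with EPB41L4A on the other strand (log2 -0.27, adjusted p = 0.326), and SNHG16 shares 1639 with AC015802.6 (log2 -0.16, adjusted p = 0.296). SNHG4 shares 626 bases with MATR3 (log2 0.00, adjusted p = 0.994) and ZFAS1 249 with ZNFX1 (log2 -0.10, adjusted p = 0.537). GAS5 shares 42 bases with GAS5-AS1 on the other strand (log2 -0.09, adjusted p = 0.717). SNHG7 shares 1094 bases with FAM69B, whose value was of the opposite sign (log2 0.26, adjusted p = 0.252). These 7 partners did not pass the edgeR test, nor did SIL1, which overlaps SNHG4, or RF02216 and RF02217, which overlap ZFAS1. RCC1 was called under each of 16 alternatives.

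Genes that start head to head with a host within 1 kb were listed after values were seen. Of 6 such genes, 1 was called, where 4.05% of all tested genes were called lower and 2.75% higher. A log2 fold change of the same sign as the host was seen for 3 of the 6, where 47.7% of all tested genes were below 0. SLC3A2, the heavy chain of the amino acid transporter pair with SLC7A5, starts 188 bases from SNHG1 on the other strand and was at 296 CPM under DMSO and 241 under rapamycin (log2 fold change -0.30, SE 0.08, edgeR adjusted p = 0.0314). RPS2, a ribosomal protein gene whose start lies 99 bases from that of SNHG9, had 2570.3 CPM under DMSO against 2907 CPM under rapamycin (log2 0.18, adjusted p = 0.124). SLC3A2 thus fell beside SNHG1, while RPS2 and SNHG9 had changes of opposite sign that did not pass. The signs were also opposite for ZBTB37 (log2 0.18, adjusted p = 0.433) beside GAS5 and TRAF7 (0.13, 0.320) beside SNHG19, and alike for ZNFX1 (-0.10, 0.537) beside ZFAS1 and ACAA2 (0.25, 0.414) beside the thinly covered SNHG22, none of them called by edgeR. The call of SLC3A2 ended in 8 of 16 alternatives, with adjusted p-values of 0.103, 0.0555 and 0.0762 without DMSO replicates 1, 2 and 3, 0.0684 and 0.152 without rapamycin replicates 2 and 3, 0.0534 and 0.0533 without non-targeting rapamycin replicates 1 and 2, and 0.0582 with the HBG1 guide libraries alone (edgeR).

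The table also counts the snoRNAs themselves, although poly-T selection does not capture mature snoRNAs well. Of 135 annotated inside members, 49 passed the filter. Among 30 whose bases lie in a host exon, where snoRNA and host reads cannot be told apart, 7 were called lower with the HBG1 guide, all of them in SNHG1 (SNORD22, SNORD25, SNORD26, SNORD27, SNORD28, SNORD30 and RF00099). SNORD27 had 286, 254 and 222 counts under DMSO and 84, 138 and 129 under rapamycin (log2 -0.95, edgeR adjusted p = 0.00716), and SNORD22 had 582, 513 and 324 counts under DMSO and 198, 280 and 402 under rapamycin (log2 -0.53, edgeR adjusted p = 0.0256). These counts and those of the next paragraph are not scaled for depth, while the log2 fold changes are. In replicates 1, 2 and 3 the DMSO libraries held 31619671, 28622942 and 20190749 counts in total. The rapamycin libraries held 19797409, 20600731 and 30107349. The 7 may share reads with SNHG1. SNORD22 and RF00099, with 126 and 125 bases in its exons and similar counts, may also describe the same snoRNA, which was not checked. Over all tested genes 4.05% were called lower. SNORD26, SNORD28 and RF00099 were called under each of 16 alternatives. SNORD22 was not called in 5 of them (adjusted p = 0.0740 and 0.0950 without DMSO replicates 1 and 2, 0.0699 and 0.0617 without rapamycin replicates 1 and 3, and 0.131 without both replicate 1 libraries). Without rapamycin replicate 3, SNORD25, SNORD27 and SNORD30 also missed the threshold (0.0574, 0.0517 and 0.0509), as did SNORD25 without DMSO replicate 2 (0.0505), all by edgeR.

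Among the 19 tested snoRNAs that lie wholly in introns, 0 were called and 17 were below 0 with the HBG1 guide, against 47.7% of all genes. Their median log2 fold change was -0.34 with the HBG1 guide and -0.43 with the non-targeting guide. The 19 are not independent, since SNORD60 and RF00345 in SNHG19 had nearly the same counts. SNORA71A, in an intron of SNHG17, had 54, 33 and 37 counts under DMSO and 17, 15 and 16 under rapamycin (log2 -1.17, edgeR adjusted p = 0.117). SNORD12C, in ZFAS1, had 71, 53 and 62 counts under DMSO and 18, 39 and 24 under rapamycin (log2 -1.02, edgeR adjusted p = 0.112). Both were low in all 3 rapamycin libraries, without passing. Among those in host exons, SNORA50C and RF00407 in SNHG25, and SNORA17A and RF00560 in SNHG7, had identical counts in every library and describe the same reads. The snoRNAs of GAS5 were not analysed here.

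The members were split by whether any of their GENCODE transcripts starts with the TOP-type run, and RefSeq starts were not used. The 13 with the run had a median log2 fold change of -0.18 with the HBG1 guide and the 12 tested members without it -0.12. With the non-targeting guide the medians were -0.28 and -0.10. With the run, 12 of 13 members were below 0 and 3 were called (5 with the replicate block), and without it 8 of 12 were below 0 and 1 was called (2 with the block). The members without the run spread from -1.41 to 0.82, those with it from -0.49 to 0.13. Both ends of the wider range are thinly covered genes, SNHG27 and SNHG22. The split was made with the values known and is a description.

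Protein-coding snoRNA hosts were taken as 1 list and then divided by whether they encode ribosomal proteins. Of 45 tested with the HBG1 guide, 11 fell and 3 rose, with a median of 0.09, where 4.05% of all tested genes fell and 2.75% rose. Of the 45, 23 encode ribosomal proteins. This division was not planned and is a description. Of those 23, 0 fell and 1 rose (median 0.14), and of the other 22, 11 fell and 2 rose (median -0.23). The lowest were GNL3, a nucleolar GTPase (148 to 102 CPM, log2 -0.53, SE 0.08, adjusted p = 0.00140), and NCL, the nucleolar protein nucleolin (755 to 536 CPM, log2 -0.49, SE 0.06, adjusted p = 0.000337). Those that rose most were EEF2, the translocase of translation elongation (3635 to 4580.2 CPM, log2 0.33, SE 0.06, adjusted p = 0.00364), and RPL3, of the large ribosomal subunit (1749 to 2186 CPM, log2 0.32, SE 0.08, adjusted p = 0.0226), all by edgeR. GNL3, NCL and EEF2 were called under each of 16 alternatives, and RPL3 was not called without DMSO replicate 2 (adjusted p = 0.107) or 3 (0.112), nor with the HBG1 guide libraries alone (0.0501). With the replicate block 15 of the 22 fell and 7 of the 23 rose, against 9.62% and 7.43% of all genes. The count of 11 was 5 without DMSO replicate 2 or rapamycin replicate 3 and 7 without DMSO replicate 3 or rapamycin replicate 2 of that guide. The count of 3 was 7 without DMSO replicate 1 and 1 without DMSO replicate 2 or 3. With the non-targeting guide 3 of the 45 fell and 0 rose, against 0.566% and 0.325% of all genes.

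The 79 cytosolic ribosomal protein genes, the best known TOP mRNAs, had a median log2 fold change of 0.13 with the HBG1 guide and 0.02 with the non-targeting guide, while the members had -0.16 and -0.21. With the HBG1 guide 1 of the 79 rose and 0 fell, against 2.75% and 4.05% of all tested genes. Of the 79, 14 were below 0, against 47.7% of all tested genes. With the non-targeting guide 0 of the 79 were called. With the replicate block in the HBG1 guide libraries 14 rose and 1 fell, against 7.43% and 9.62% of all genes. The count that rose was 9 without DMSO replicate 1, 4 without rapamycin replicate 2 and 0 without DMSO replicate 2 or 3, and the count that fell was 3 without rapamycin replicate 1. The median of the 13 members with the TOP-type start on any GENCODE transcript was -0.18. It stands beside that of all 79 ribosomal protein genes, not of those with the start alone, and the difference was not tested.

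Of 5 other non-coding snoRNA hosts outside the naming rule, 1 fell and 0 rose: DANCR, a snoRNA host (144 to 96.5 CPM, log2 -0.58, SE 0.09, adjusted p = 0.00107, edgeR), which was called under each of 16 alternatives. Of 19 long non-coding RNA genes without snoRNAs, 2 rose and 1 fell, with a median of 0.11 and 3 below 0. Over all tested genes 2.75% rose, 4.05% fell and 47.7% were below 0 with the HBG1 guide. With the non-targeting guide 0 genes of these 2 lists were called. The values that follow are with the HBG1 guide. NORAD, which sequesters Pumilio proteins, fell (323 to 241 CPM, log2 -0.42, SE 0.09, adjusted p = 0.0138), and GABPB1-AS1 (57.9 to 73.7 CPM, log2 0.35, SE 0.10, adjusted p = 0.0445) and OIP5-AS1 (137 to 164 CPM, log2 0.26, SE 0.07, adjusted p = 0.0394) rose. NORAD missed the threshold without DMSO replicate 2 or 3 (adjusted p = 0.0647 and 0.0877). The higher count was 0 or 1 without any 1 of the libraries other than the non-targeting DMSO library, and the highest adjusted p over these fits was 0.199 for GABPB1-AS1 and 0.175 for OIP5-AS1 (edgeR).

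Among factors that act on host RNAs or their snoRNAs, those called with the HBG1 guide were lower. Over all tested genes 4.05% fell, 2.75% rose and 47.7% were below 0 with that guide. Of 19 factors of nonsense-mediated decay, 4 fell and 0 rose (median -0.18, 17 below 0), among them EIF4A3 of the exon junction complex (123 to 93.8 CPM, log2 -0.39, SE 0.08, adjusted p = 0.00815) and its partner RNPS1 (296 to 235 CPM, log2 -0.33, SE 0.07, adjusted p = 0.00688). Of 16 proteins of snoRNA particles and their assembly, 5 fell and 0 rose (median -0.20, 15 below 0), led by the assembly factor NUFIP1 (13.8 to 9.25 CPM, log2 -0.58, SE 0.16, adjusted p = 0.0374) and GAR1, a core protein of H/ACA particles (64.2 to 44.6 CPM, log2 -0.53, SE 0.11, adjusted p = 0.00813), all by edgeR. RNPS1 was called under each of 16 alternatives, and EIF4A3 and GAR1 were not without rapamycin replicate 3 (adjusted p = 0.0575 and 0.0556). NUFIP1 was not called without DMSO replicate 2 (0.0674) or 3 (0.172) or rapamycin replicate 2 (0.0624) or 3 (0.162). With the replicate block 10 of the 16 fell, against 9.62% of all genes. The count of 4 was 2 without DMSO replicate 2 and 1 without rapamycin replicate 3. The count of 5 was 3 without DMSO replicate 1 or 3, 2 without DMSO replicate 2 or rapamycin replicate 2, and 1 without rapamycin replicate 3. With the non-targeting guide 0 of the 19 decay factors and 1 of the 16 snoRNA particle proteins fell, against 0.566% of all genes, and 0 rose. The lists overlap, since 3 genes of snoRNA particles are also coding hosts.

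**Figure D4:**
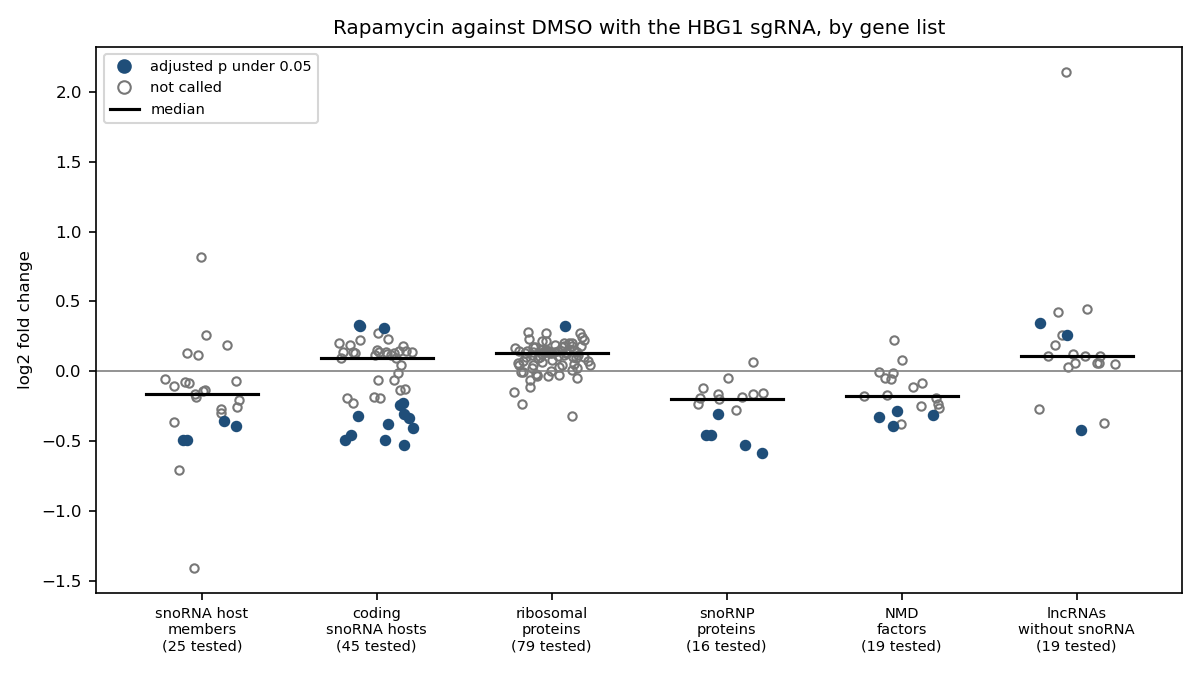
Log2 fold change of rapamycin against DMSO with the HBG1 guide (vertical axis) for every tested gene of 6 lists; each point is a gene, filled where the adjusted p is under 0.05, and the line is the median. The medians of the members (-0.16), snoRNA particle proteins (-0.20) and decay factors (-0.18) lie below 0, and those of ribosomal protein genes (0.13) and other long non-coding RNAs (0.11) above it.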

How the data were processed

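The authors deposited raw counts of reads per Ensembl gene ID for 9 libraries, 1 column each, with 0 columns that matched no library. Poly-T beads and a NEBNext Ultra kit were used, as the labels' protocols state. The submitters' processing notes name STAR 2.7.3a, featureCounts, Subread 2.0.0, R 4.1.2, limma 3.34.9, edgeR 3.24.0 and GRCh38/hg38. The annotation release, the strand setting and the treatment of reads on shared bases are not given in the sources used here. Symbols and positions came from GENCODE 29, which held 58039 of 58347 IDs (99.47%).

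From the counts, edgeR 4.0.16 (R 4.3.3) was fitted over all 9 libraries with 1 mean per group, TMM scaling (factors 0.977 to 1.02) and filterByExpr at a minimum count of 10, which left 23675 genes. Calls are quasi-likelihood tests at a Benjamini-Hochberg adjusted p under 0.05 over all these genes, and the fit was tested on simulated data. Standard errors are the log2 fold change over the square root of F. Groups and replicate numbers were read from titles.

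With the HBG1 guide, residuals of same-numbered libraries around their group means correlated at 0.553, 0.278 and 0.231 over 11498 genes, each over 0.1. Replicates 2 and 3 correlated about as well when crossed (0.258 and 0.194), so the pairing of these 2 by number is not shown. Across guides the value was -0.073.

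Library values are given for called members at a mean log2 CPM of 1 or more, the 6 most abundant members, and GAS5, ZFAS1 and EPB41L4A-AS1; SNHG7 was added after its values were seen. From each list up to 2 highest and 2 lowest called genes are named, and tested genes that share exons with a named member. The members and lists were chosen with earlier results of these data known. Alternatives were DESeq2 1.42.0, RLE size factors, no filter, replicate blocks, an additive model, the HBG1 guide libraries alone and leaving out each library. The block within each guide and leaving out both replicate 1 libraries of the HBG1 guide were chosen after seeing the data.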

Additional observations from a re-analysis of the deposited data

How the results depend on the processing

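Over 16 alternatives for rapamycin against DMSO with the HBG1 guide, SNHG1 and SNHG12 kept their direction and their call. SNHG17 lost its call in 4 and SNHG3 in 8, each with its direction kept. DESeq2 called 6 members in this comparison, where it called 13.1% of all genes in either direction. The count of members lower (4) was 7 with the replicate block in the HBG1 guide libraries (9.62% of all genes) and 7 in the additive model of guide and treatment (7.8%), against 4.05% in the reported fit, and ran from 2 to 4 when 1 library was left out (5 without both replicate 1 libraries of the HBG1 guide). The median log2 fold change of the members (-0.16) ran from -0.26 to -0.12 when 1 library was left out, and was -0.23 without both replicate 1 libraries of the HBG1 guide. With the non-targeting guide, the count of members lower (0) was 4 with DESeq2 (4.12% of all genes), 3 with no filter on low counts (0.991%), 4 with the replicate block over all libraries (0.955%), 4 with the block within each guide (1.86%), 6 without both replicate 1 libraries of the HBG1 guide (3.44%), and 0 to 3 when 1 library was left out. Its median (-0.21) was -0.31 with the replicate block. The block changed no count of members between guides under rapamycin or in the test of the difference between guides, where 0 were called under every alternative run. Without SNHG5, the summed share of counts was 0.166% and 0.144% with the HBG1 guide under DMSO and rapamycin, and 0.160% and 0.136% with the non-targeting guide. Some members that were not called changed sign with the HBG1 guide when libraries were left out. Their log2 fold changes then ran from -0.090 to 0.25 for SNHG10, -0.17 to 0.056 for SNHG11, -0.19 to 0.010 for SNHG20, -0.41 to 0.12 for SNHG25, -0.0021 to 0.21 for SNHG6 and -0.25 to 0.026 for ZFAS1. Except where fewer libraries or genes were fitted, the cause was not tested. RLE size factors moved the median of all genes by 0.0012 and changed no count of members. Depth limits SNHG22, SNHG27 and SNHG28, whose libraries hold 0 to 103 counts.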
